A study of Mus musculus with 9 samples.

Results

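The glycoprotein hormones of the pituitary are each a pair of subunits, and 4 genes of the 18634 in this single-cell data set encode them in the mouse pituitary: Cga, Tshb, Lhb and Fshb. They were chosen by their high levels in 3 of 9 libraries, so those levels are given here as a description with no test. Single cells of brainstem, cortex and hypothalamus came from C57BL/6 mice aged 9 to 11 weeks, which the study's methods describe as wild-type males of the J substrain in all groups. The NS mice slept normally and the SD mice were kept from sleep for 12 h. The RS mice were deprived likewise and then recovered for 24 h, although a recovery of 12 h is also stated in the labels. Each library pooled the tissue of 3 mice of a group, collected at the same time of day, dissociated with papain, cleared with myelin removal beads and captured in 10x Chromium version 2 droplets, and region and sleep group made 9 libraries. The count table names its libraries by codes that match no label, so they are numbered 1 to 9 in table order here. No library could be given a region or a sleep group, no library has a replicate, and no comparison of sleep groups was made.

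In these hormones a common alpha subunit, made from Cga, joins a beta subunit that gives each hormone its receptor. Tshb encodes the beta subunit of thyrotropin (TSH), which drives the thyroid gland, and Lhb and Fshb encode those of luteinizing hormone (LH) and follicle-stimulating hormone (FSH), which drive the gonads. Gonadotrophs of the anterior pituitary make LH and FSH under control of gonadotropin-releasing hormone, thyrotrophs make TSH under control of thyrotropin-releasing hormone, and cells of the pars tuberalis, which wraps the pituitary stalk below the hypothalamus, also express Cga and Tshb.

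The 250 bases before the transcription start of each gene are shown because the members were found together in some cells and apart in others. The sequences are from RefSeq on GRCm38.p6, read 5′ to 3′ on the gene's strand, and the 4 members all matched by symbol. They span chr4:34893529-34893778 (plus strand) for Cga, chr3:102782715-102782964 (minus strand) for Tshb, chr7:45420696-45420945 (plus strand) for Lhb and chr2:107059652-107059901 (minus strand) for Fshb. Capitals mark matches to TATAAA on the gene's strand, and on either strand to the SF-1 site TGNCCTTG, the EGR site CGCCCCC, the PITX site AGATTA and the cyclic AMP element variant TGATGTCA.
Cga: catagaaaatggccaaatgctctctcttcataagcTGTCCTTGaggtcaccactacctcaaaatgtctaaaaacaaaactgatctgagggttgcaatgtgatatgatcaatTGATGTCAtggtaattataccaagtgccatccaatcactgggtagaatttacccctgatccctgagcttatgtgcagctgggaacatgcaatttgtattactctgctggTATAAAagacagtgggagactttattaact
Tshb: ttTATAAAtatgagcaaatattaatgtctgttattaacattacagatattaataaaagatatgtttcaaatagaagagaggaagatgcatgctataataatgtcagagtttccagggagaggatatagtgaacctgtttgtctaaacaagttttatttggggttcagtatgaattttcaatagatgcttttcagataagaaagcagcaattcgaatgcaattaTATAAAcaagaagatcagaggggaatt
Lhb: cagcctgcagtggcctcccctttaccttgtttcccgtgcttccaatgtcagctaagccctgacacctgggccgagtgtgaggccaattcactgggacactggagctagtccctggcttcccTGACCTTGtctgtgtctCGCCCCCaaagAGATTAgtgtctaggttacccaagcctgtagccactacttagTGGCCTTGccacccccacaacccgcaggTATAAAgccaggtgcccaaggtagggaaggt
Fshb: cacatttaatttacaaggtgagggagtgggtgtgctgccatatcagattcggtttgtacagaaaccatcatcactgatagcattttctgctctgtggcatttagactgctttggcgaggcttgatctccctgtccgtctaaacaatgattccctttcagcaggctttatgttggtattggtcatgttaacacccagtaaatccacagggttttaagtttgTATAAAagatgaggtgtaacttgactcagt

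TATAAA lay in all 4 windows, its first base 30, 27, 31 and 30 bases before the start of Cga, Tshb, Lhb and Fshb. Of 32851 RefSeq promoters of the same length, 7.59% held one anywhere and 1.99% held one beginning 20 to 40 bases before the start. TGNCCTTG, the form read by the gonadotroph factor SF-1 (the product of Nr5a1), was found in Cga and in Lhb, where it occurred at 2 places, and 5.53% of promoters held it. Lhb also held CGCCCCC, read by the early growth response factors, and AGATTA, read by PITX factors, which were in 14.8% and 7.31% of promoters. TGATGTCA was in Cga and 2.93% of promoters. Both strands were also searched for 3 other motifs. The GATA factor site AGATAA was found in the window of Tshb and in 9.99% of all promoters. The full cyclic AMP element TGACGTCA was found in none of the 4 windows and in 1.55% of promoters. The E-box CANNTG was found in the windows of Cga and Lhb and in 66.2% of promoters, and in Cga it overlapped the cyclic AMP element variant by 2 bases. These are matches of letters and nothing was measured at them. In the GENCODE M21 annotation Lhb begins 126 bases earlier than in RefSeq, so that its window lies partly inside that gene model.

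In GENCODE M21 on GRCm38, Cga (ENSMUSG00000028298.10) spans chr4:34893779-34907370, Tshb (ENSMUSG00000027857.10) chr3:102775465-102782718, Lhb (ENSMUSG00000100916.3) chr7:45420820-45421897 and Fshb (ENSMUSG00000027120.6) chr2:107056140-107059656. The last 138 bases of Lhb, chr7:45421760-45421897, are shared with Ruvbl2, a gene of an ATPase complex that ends there on the opposite strand. Whether counting used strand is not given in the sources used here, and reads of that stretch could come from either gene if it did not.

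The table held 29571 cells, 2575 to 3916 in a library, with 1522766 to 5488950 unique molecular identifiers (UMIs, 1 for each captured transcript) and medians of 402 to 1055 UMIs per cell. Libraries 4, 5 and 6 held 3491, 2706 and 3916 of these cells, with 3965301, 2121900 and 5488950 UMIs. In them Gh, Prl and Pomc, the genes of growth hormone, prolactin and the corticotropin precursor, together took 28.6%, 29.2% and 36.6% of UMIs, although the labels name no pituitary. Pairs of libraries shared 5 to 25 cell barcodes. No barcode was shared between the cells of libraries 4 to 6 that are described here as holding a subunit, and 22 of those 723 barcodes also occurred in another library. Since 1 UMI stands for 1 transcript whatever its length, levels of the 4 genes are compared as CPM, counts scaled to a common total per library. Their intervals are exact, at 95%, and cover counting error only.

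Cga led the 4 genes in each of libraries 4, 5 and 6. Libraries 4, 5 and 6 had 49847, 12435 and 52284 Cga UMIs, which made 12571 CPM (interval 12461 to 12682), 5860 CPM (5758 to 5964) and 9525 CPM (9444 to 9607). By UMIs it was the 4th, 6th and 5th gene of those libraries. Library 4 was highest and library 5 lowest, 2.15 times apart, and their intervals did not overlap. In libraries 1, 2 and 3 Cga had 5, 6 and 15 UMIs, which is 3.28, 3.10 and 4.09 CPM. It had no UMI in libraries 7, 8 and 9, where 3 UMIs would be 0.675, 0.872 and 0.615 CPM. The lowest of libraries 4 to 6 was thus 1434 times as high as the highest of the others.

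Lhb followed at 3897 CPM (3836 to 3959), 1836 (1779 to 1895) and 3159 (3112 to 3206). Fshb came next at 569 CPM (546 to 593), 295 (272 to 319) and 454 (436 to 472). The order of libraries 4, 6 and 5, from high to low, was that of Cga for both genes. Tshb was the lowest member at 73.6 CPM (65.4 to 82.6), 90.5 (78.1 to 104) and 139 (129 to 149). Its order differed from that of the others, since library 6 was highest, and the intervals of libraries 4 and 5 overlapped. In library 4 Tshb was the 1471st gene by UMIs, in library 5 the 1187th and in library 6 the 575th. Counted in cells of at least 1000 UMIs alone, Tshb was far lower in libraries 4 and 5 and somewhat lower in library 6. Those levels are given with the other alternatives below.

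Relative to the alpha subunit, the gonadotropin betas were nearly in step. For every 100 Cga UMIs there were 31.0, 31.3 and 33.2 of Lhb and 4.53, 5.03 and 4.76 of Fshb in libraries 4, 5 and 6. Tshb gave 0.586, 1.54 and 1.46, so it was lower beside Cga in library 4 than in libraries 5 and 6. Lhb had 6.84, 6.23 and 6.96 UMIs for each of Fshb.

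**Figure D1:**
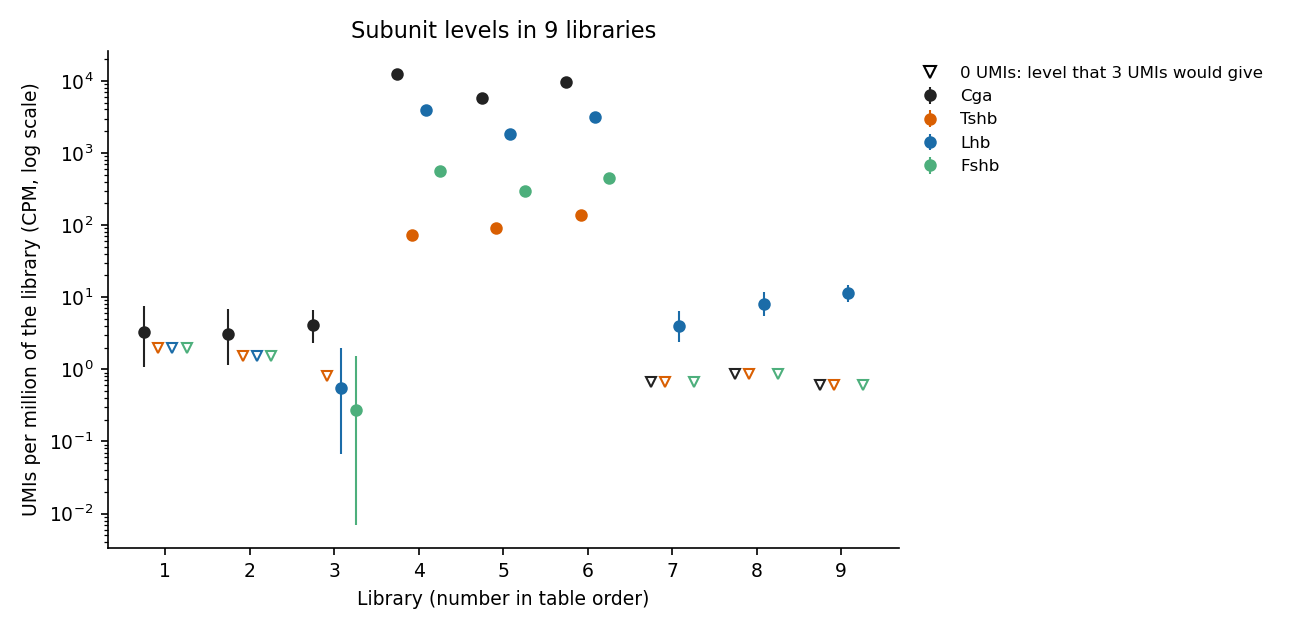
Level of each subunit in each library, in CPM on a log axis, with exact 95% Poisson intervals as bars where UMIs were found and open triangles at the level of 3 UMIs where none was. In libraries 4 to 6 the order was Cga, Lhb, Fshb and Tshb, from 12571 to 73.6 CPM in library 4, and the highest level in any other library was 11.3 CPM, of Lhb in library 9.

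Outside libraries 4 to 6 the beta subunits were near their floor, with 1 exception. Tshb had no UMI in any of the other 6 libraries and was at least 37.4-fold higher in its lowest library than the 1.97 CPM that 3 UMIs would give in the shallowest of them. Fshb had 1 UMI, in library 3. Lhb had 0, 0 and 2 UMIs in libraries 1 to 3 but 18, 28 and 55 in libraries 7 to 9 (4.05, 8.13 and 11.3 CPM), which had no Cga UMI at all. Those UMIs lay in 18, 25 and 51 cells at 1 or 2 each, unlike the large counts per cell in libraries 4 to 6. Ruvbl2, whose end overlaps Lhb, had 133, 109 and 216 UMIs in libraries 7 to 9, and 6, 5 and 8 of the Lhb cells also had a Ruvbl2 UMI. The Lhb cells there had medians of 2485.5, 1512 and 1884 UMIs against 919, 744 and 1014 for all cells of the library. The part of either value in the Lhb UMIs was not tested.

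A few cells carried nearly all transcripts. Cga was found at 1 UMI or more in 1235 (35.4%), 313 (11.6%) and 1497 (38.2%) cells of libraries 4, 5 and 6. Cells with at least 5 UMIs were fewer, 273 (7.82%), 96 (3.55%) and 354 (9.04%), and they held 97.6%, 98.1% and 97.2% of the Cga UMIs. The highest cells had 959, 821 and 655, and in single cells Cga was up to 34.4%, 39.4% and 35.1% of all UMIs.

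Single UMIs of Cga were also found in cells of other types. Cells with at least 3 microglia markers, a type that should lack the gene, had a Cga UMI in 22.3%, 4.82% and 47.9% of 179, 166 and 48 cells, at median depths of 599, 433.5 and 977.5 UMIs. Cells with at least 3 endothelial markers had one in 27.9%, 7.85% and 28.6% of 201, 191 and 77 cells, at median depths of 717, 481 and 916 UMIs. With every cell thinned to 500 UMIs, and 389, 1149 and 0 shallower cells left out, Cga was found in 23.7%, 10.7% and 23.2% of cells, in 17.4%, 9.26% and 29.2% of microglia-like cells and in 18.5%, 9.20% and 19.5% of endothelial-like cells. Thus 1 UMI of Cga was at or near background in these libraries, and a cell is said below to hold a subunit only at 5 UMIs or more. At that level the microglia-like cells came to 1.12%, 1.20% and 6.25% and the endothelial-like cells to 2.49%, 0.524% and 1.30%. These shares rest on few cells and on the number of markers asked for. The microglia-like shares were 3.33%, 2.55% and 12.1% with at least 2 markers and 0.606%, 0.709% and 4.88% with at least 4. The endothelial-like shares were 3.29%, 0.422% and 4.85% with at least 2 markers and 2.58%, 0.704% and 1.89% with at least 4.

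Lhb was found at 1 UMI or more in 559 (16.01%), 146 (5.40%) and 728 (18.6%) cells, against 8.38%, 1.81% and 18.8% of microglia-like cells. It was held at 5 UMIs by 214, 60 and 264 cells, with 97.4%, 97.5% and 96.9% of its UMIs. Fshb was found in 244 (6.99%), 74 (2.73%) and 330 (8.43%) cells, against 2.23%, 1.20% and 4.17% of microglia-like cells, and held by 178, 43 and 210. Its highest cells had 41, 36 and 32 UMIs, far fewer than the 202, 149 and 341 of Lhb. Tshb was found in 57 (1.63%), 30 (1.11%) and 105 (2.68%) cells, against 1.12%, 0.602% and 2.08% of microglia-like cells, and was held by only 14, 10 and 16. Those few cells had 82.2%, 82.8% and 85.9% of the Tshb UMIs.

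No cell of libraries 4 to 6 held a beta subunit without also holding Cga at 5 UMIs, while with thresholds of 3 UMIs 4 cells of library 4 and 2 of library 6 had Lhb alone, and with 10 UMIs 1 cell of each. Cga, Lhb and Fshb were held together by 178, 43 and 208 cells, Cga with Lhb by 35, 17 and 56, and Cga with Fshb by 0, 0 and 2. Of the cells that held Fshb, 100%, 100% and 99.0% held Lhb, and of those that held Lhb, 83.2%, 71.7% and 78.8% held Fshb. Cga was held with Tshb by 13, 10 and 16 cells.

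Few cells that held Tshb held a gonadotropin beta, and few of all cells did. A single cell, in library 4, held both Tshb and Lhb, with 218 UMIs of Cga, 14 of Tshb, 5 of Lhb and 0 of Fshb among 7546 in all. Of 16, 14 and 21 cells with at least 3 Tshb UMIs, all held Cga, 1 had 3 or more Lhb UMIs and none had 3 or more of Fshb. At 1 UMI, where background enters, finding Tshb went little with finding Lhb, with odds ratios of 1.41, 1.26 and 1.17 in libraries 4, 5 and 6. At 5 UMIs the odds ratios were 1.18, 0 and 0, of which the first rests on that 1 cell. Both kinds of cell were rare, so that over all cells of libraries 4, 5 and 6 independent holding would give 0.858, 0.222 and 1.08 cells with Tshb and Lhb and 0.714, 0.159 and 0.858 with Tshb and Fshb. At these numbers a separation over all cells was not detectable. Among the 273, 96 and 354 cells that held Cga, Lhb was held by 214, 60 and 264, and among the 14, 10 and 16 of them that held Tshb it was held by 1, 0 and 0. No cell held a beta subunit without Cga, so keeping Cga-holding cells leaves out most cells with no beta. That choice by itself sets Tshb and Lhb apart, so these counts show no separation.

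**Figure D2:**
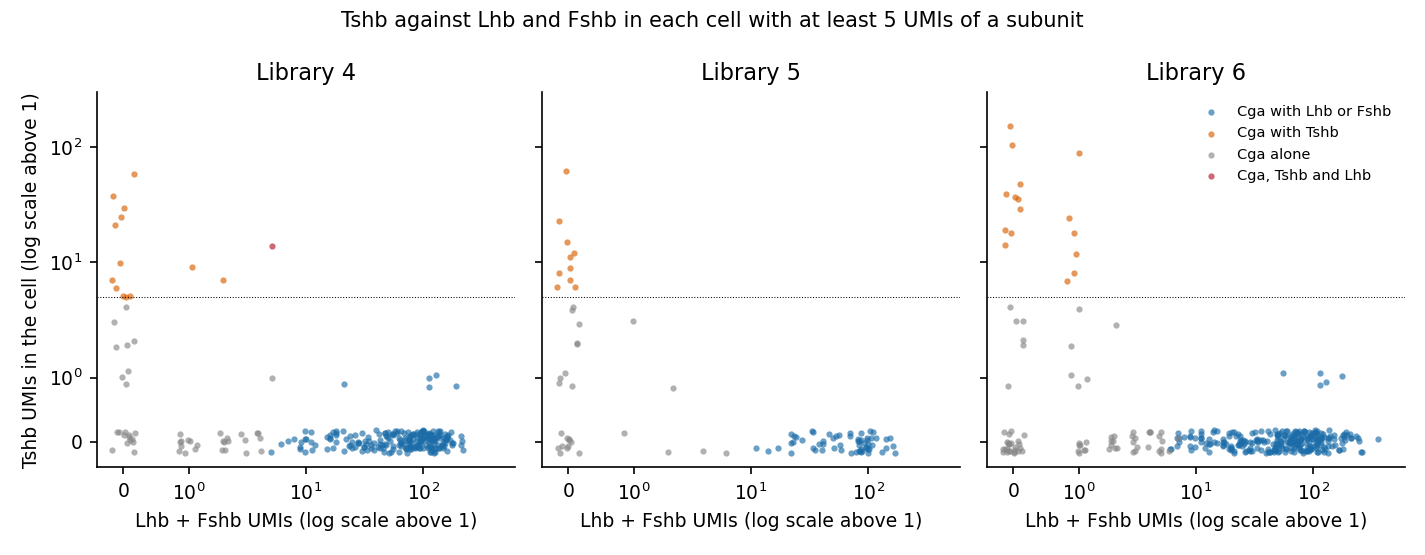
Tshb UMIs against the sum of Lhb and Fshb UMIs in the 723 cells of libraries 4 to 6 that hold at least 1 subunit, 1 panel for each library, both axes linear up to 1 and logarithmic above, with a small fixed shift of points so that equal counts can be seen. Cells with many Tshb UMIs, up to 153, lie at the left and cells with many gonadotropin UMIs at the bottom, and the 1 cell that holds Tshb and Lhb has 14 and 5 UMIs.

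Holding cells were divided by these patterns into gonadotropin cells, with at least 5 UMIs of Cga and of Lhb or Fshb but not of Tshb, Tshb cells, with Cga and Tshb only, and Cga-alone cells. Libraries 4, 5 and 6 had 213 (6.10%, interval 5.33 to 6.95), 60 (2.22%, 1.70 to 2.84) and 266 (6.79%, 6.02 to 7.63) gonadotropin cells. Their share was lowest in library 5, with an interval below those of both other libraries. Library 5 was also the shallowest of these, with a median of 565 UMIs per cell against 869 and 1055. The part of depth in the share at a fixed cut of 5 UMIs was not tested. Tshb cells were 13 (0.372%, 0.198 to 0.636), 10 (0.370%, 0.177 to 0.679) and 16 (0.409%, 0.234 to 0.663), and their shares did not differ beyond counting error. Cga-alone cells were 46 (1.32%), 26 (0.961%) and 72 (1.84%). The median gonadotropin cell had 1451, 1106 and 1281 UMIs, the median Tshb cell 626, 656 and 1011.5, and the median cell of the same libraries that held no subunit, the reference below, 841, 552.5 and 1032.

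In gonadotropin cells the subunits took a large part of the transcripts. Cga had a median of 212, 150 and 164 UMIs, or 15.4%, 14.7% and 13.6% of a cell's UMIs, in libraries 4, 5 and 6. Lhb had medians of 66, 69 and 54 UMIs (4.58%, 5.73% and 3.98%) and Fshb of 9, 8.5 and 8 (0.661%, 0.752% and 0.640%). Together the subunits had medians of 22.0%, 21.8% and 19.1%, and reached 42.1%, 43.4% and 40.03% in single cells. Lhb exceeded Cga in 6, 0 and 4 cells, and Fshb exceeded Lhb in 4, 0 and 3. At least 1 Fshb UMI was found in 97.2%, 98.3% and 96.6% of gonadotropin cells, so cells with Lhb and no Fshb were rare.

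Counts of the 3 genes rose together from cell to cell. As a description over 213, 60 and 266 cells that share a library and differ in depth, Pearson's r of log2(1 + UMIs per 10000) was 0.771, 0.550 and 0.786 between Cga and Lhb, 0.607, 0.301 and 0.586 between Cga and Fshb, and 0.459, 0.384 and 0.536 between Lhb and Fshb. With gonadotropin cells ranked by Lhb UMIs and cut into 3 equal parts, median Fshb was 6, 3.5 and 5 UMIs in the lowest part, 10, 8 and 8 in the middle and 12, 14 and 12 in the highest. Fshb grew less than Lhb did in libraries 4 and 6, since summed Fshb per 100 Lhb UMIs went from 33.6 to 16.2 to 10.6 in library 4 and from 34.0 to 16.7 to 10.5 in library 6, but from 20.6 to 14.4 to 15.98 in library 5. Ranking by Lhb itself enters that ratio. Cells with under 5 Fshb UMIs had a median of 17, 30 and 19.5 Lhb UMIs against 78.5, 77 and 61.5 in the others, and were also shallower, with 982, 701 and 1205 against 1464, 1257 and 1333.5 UMIs in all.

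**Figure D3:**
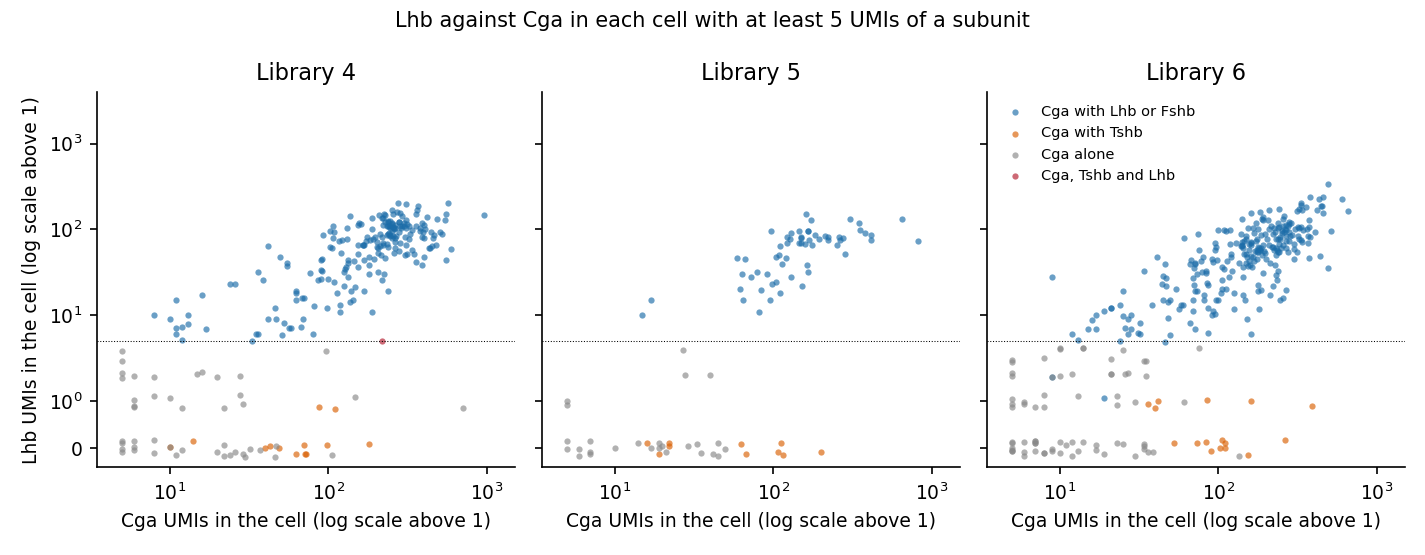
Lhb UMIs (vertical) against Cga UMIs (horizontal) in the 723 holding cells, 1 panel for each of libraries 4, 5 and 6, with both axes linear up to 1 and logarithmic above, a small fixed shift of the Lhb values and a dotted line at 5 Lhb UMIs. Gonadotropin cells form a band around 1 Lhb UMI for 3 of Cga (median Lhb per Cga 0.331, 0.389 and 0.332), while Tshb cells lie near 0 Lhb UMIs.

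Against the reference cells of the same library, and with 10 CPM added to both levels, 8, 7 and 7 of the 12 tested genes of a gonadotroph list were at least 2-fold higher in gonadotropin cells of libraries 4, 5 and 6 and 1 was at least 2-fold lower in each. Of all 13594 genes tested, 3.30%, 8.61% and 4.56% were that much higher and 5.26%, 20.8% and 2.47% that much lower. The median ratio of the list was 3.73, 4.39 and 3.55, and that of all genes 0.997, 0.816 and 1.13. Gnrhr, Nr5a1 and Nr0b1 had under 20 UMIs in the reference cells and passed the filter on low counts only through UMIs in other cells. With the filter set on the reference cells alone, 5, 4 and 4 of the other 9 genes were at least 2-fold higher and the median ratio was 2.56, 1.48 and 1.94, with 3.15%, 8.26% and 4.44% of 13319 genes higher and medians of 0.994, 0.802 and 1.13. There is 1 library of each kind, so these are sizes with no test.

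Tgfbr3l, Gnrhr and Scg2 stood highest in that list. Gnrhr, the receptor for gonadotropin-releasing hormone, had 433, 808 and 463 CPM in gonadotropin cells against 1.14, 0.499 and 1.87 CPM in reference cells. It was found in 46.9%, 48.3% and 47.7% of gonadotropin cells and in no more than 0.253% of reference cells. Tgfbr3l, a membrane protein that binds inhibin B, had 3276, 5154 and 2865 CPM and was found in 90.1%, 93.3% and 84.2%. Inhbb, a subunit of inhibin B and activin B, was lower in level at 80.6, 86.6 and 53.5 CPM but still 6.21, 6.67 and 3.87 times the reference. Esr1, the estrogen receptor alpha, had 175, 144 and 97.8 CPM, which was 4.23, 5.07 and 3.22 times the reference.

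Of the transcription factors, Nr5a1, which encodes SF-1, had 114, 202 and 83.8 CPM, or 10.8, 18.5 and 7.64 times the reference, and Nr0b1, its partner DAX1, 3.22, 3.703 and 5.77 times. Egr1, an immediate early gene that acts on the Lhb promoter, was at 192, 188 and 284 CPM and did not pass 2-fold in any of the 3 libraries (1.22, 1.13 and 1.85). Inha and Smad3 did not pass either, and Inhba passed in library 4 alone, on a level of 22.2 CPM. The other 3 genes of the list had under 20 UMIs over the 3 libraries and were not tested. Dlk1, a Notch-like membrane protein, was the 1 gene of the list that was lower, at 153, 28.9 and 263 CPM or 0.190, 0.0593 and 0.221 times the reference.

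Shared lineage regulators were higher in part, with 5, 3 and 5 of 8 tested genes at least 2-fold higher and none lower. Pitx1, an early pituitary factor, had 194, 332 and 235 CPM (5.22, 18.5 and 6.18 times), and Isl1, a LIM homeodomain factor, was 3.76, 5.71 and 3.93 times the reference. Lhx4, a related factor with too few UMIs to be tested, had all of its 11 UMIs of the holding and reference cells in gonadotropin cells. Granule genes were higher for 4, 5 and 4 of 8. Scg2, secretogranin II, reached 9803, 14148 and 8745 CPM, Chga, chromogranin A, 3468, 5775 and 2304 CPM, and Pcsk1, a prohormone convertase, 10.7, 12.5 and 9.57 times the reference. Cpe and Pcsk2, a carboxypeptidase and a second convertase, did not pass 2-fold.

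Genes of the thyrotrope side did not follow. Of 8 tested thyrotroph and thyroid feedback genes, 1 was higher in each library, Gata2, at 4.67, 12.1 and 4.49 times the reference, and 2, 5 and 2 were lower. Pou1f1, the factor of the thyrotroph, somatotroph and lactotroph lineages, was 0.231, 0.283 and 0.166 times the reference. Of the glycan genes, Chst8, which adds sulfate to sugar chains of LH, was 2.09, 2.22 and 2.35 times the reference and the other 2 tested were not higher. Gh, Prl and Pomc were lower in all 3 libraries, Gh at 0.0651, 0.0191 and 0.0745 times, although at least 1 Gh UMI was found in 100% of gonadotropin cells of each library, as it was in 100%, 95.2% and 100% of microglia-like cells. Gpha2, the alpha-like subunit gene of the family, had 44, 21 and 44 UMIs in libraries 4 to 6 and passed 2-fold in library 5 alone (2.10), on 28.9 CPM. Of the hormone receptors only Tshr could be tested, and neither it nor Eya3, a coactivator of the pars tuberalis response to melatonin, was 2-fold higher or lower. Mtnr1a, Fshr, Kiss1, Gphb5 and B4galnt3 are not among the gene names used here.

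**Figure D4:**
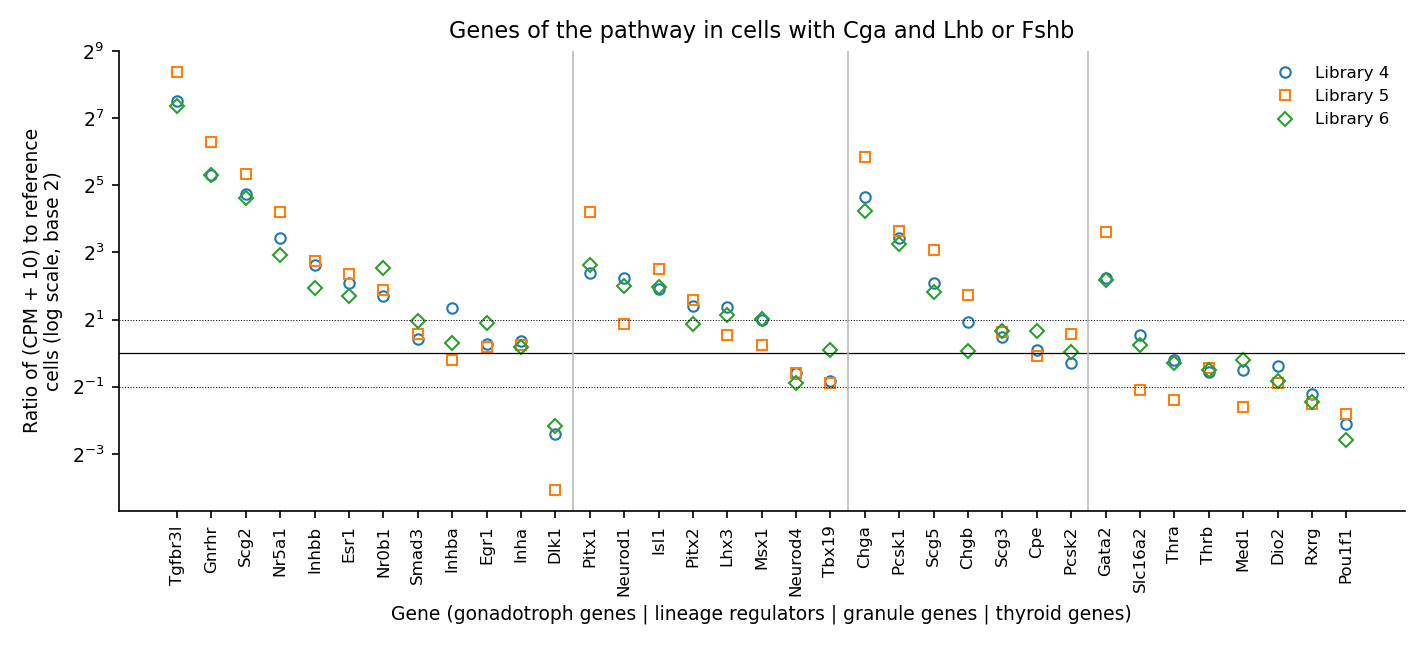
Ratio of the level of each tested gonadotroph, lineage, granule and thyrotroph gene in gonadotropin cells to that in reference cells of the same library, with 10 CPM added to both, on a log axis with 1 point for each of libraries 4, 5 and 6. Tgfbr3l stands highest at 182, 333 and 163 times, Gnrhr and Chga are above 18 times in each library, and Dlk1 and Pou1f1 lie below the line at 1. The height of genes near 0 in the reference rests on the CPM added, and with 1 CPM added Tgfbr3l is at 364, 795 and 331 times and Gnrhr at 203, 540 and 162.

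Tshb cells were few, and their values rest on single transcripts. With 13, 10 and 16 cells, 1 UMI of any gene was worth 36.6, 120 and 27.3 CPM, and of all tested genes 16.2%, 11.7% and 18.8% were at least 2-fold higher than in reference cells and 29.5%, 49.0% and 17.8% at least 2-fold lower. Of the 8 tested thyrotroph and thyroid feedback genes, 4, 2 and 4 were higher and 3, 5 and 0 lower in libraries 4, 5 and 6. Gonadotroph genes were higher for 3, 4 and 2 of 12 and lower for 2, 1 and 1. Lineage regulators were higher for 3, 3 and 5 of 8 and lower for 2, 1 and 1, and granule genes higher for 4, 6 and 4 of 8 and lower for 1 in each. Without the 4 Tshb cells of more than 5000 UMIs, 2 in library 4 and 2 in library 6, the counts of libraries 4 and 6 were 5 and 3 higher and 3 and 2 lower for thyrotroph genes, 2 and 4 higher and 2 and 1 lower for gonadotroph genes, 2 and 5 higher and 3 and 1 lower for lineage regulators, and 5 and 5 higher and 0 and 1 lower for granule genes. The shares of all genes were then 14.1% and 16.7% higher and 46.1% and 31.6% lower.

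Within Tshb cells, Tshb ran from 5 to 58 UMIs in library 4 with a median of 9, from 6 to 62 in library 5 with a median of 10, and from 7 to 153 in library 6 with a median of 26.5. The highest cell held 19.9%, 32.3% and 20.1% of its library's Tshb UMIs, so library levels of Tshb lean on single cells. Tshb never exceeded Cga in a cell, and its median ratio to Cga was 0.322, 0.243 and 0.273.

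The gonadotroph receptor and factor were not found in Tshb cells. Over all 39, Gnrhr and Nr5a1 had 0 UMIs, which allows up to 41.5 CPM. Without the 4 cells above 5000 UMIs the limit was 90.6 CPM, which is below Gnrhr in gonadotropin cells of each library but not below Nr5a1 in those of library 6 (83.8 CPM). Pou1f1, which thyrotrophs of the anterior lobe are known for, had 5 UMIs in 4 cells, all in library 6, which is 10.3% of Tshb cells against 11.8% of reference cells and 69.1 CPM against 133, or 121 CPM without the 4 deep cells. Dio2, the deiodinase that makes active thyroid hormone, had 9 UMIs in 6 cells. Gata2 had 11 UMIs in 7 cells, or 152 CPM against 7.46 in reference cells, but its ratio fell to 0.659 in library 6 without the deep cells, where no Gata2 UMI was left, and to 0.543 in library 5 at a threshold of 10 UMIs. Chgb, chromogranin B, was found in 97.4% of Tshb cells, at 7578 CPM against 539 in the reference, and at 14190 CPM without the 4 deep cells. Dlk1 was found in 76.9% of them against 41.2% of reference cells.

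Tshb cells were divided into 2 sets by genes that were picked after their values were seen. Apoc3, an apolipoprotein, and Cck, the cholecystokinin peptide, which were among the 5 genes most like Tshb across cells, were found together in 8 of 39 cells, 3, 2 and 3 by library, and neither was found in the other 31. The 8 cells had 31 to 116 Chga UMIs each, 0.357% to 3.22% of the cell. The other 31 had 0 to 2, at most 0.407%, so the ranges overlapped narrowly as shares. Chga was also among the 5 genes most like Tshb. How many of all genes differ as much between the 8 and the 31 cells was not counted. Tshb ran from 6 to 18 UMIs in the 8 and from 5 to 153 in the 31, and as a share of the cell had medians of 0.240% and 2.28%. Cga had medians of 1.96% and 12.8% of the cell. Dlk1 was found in 2 of the 8 cells and 28 of the 31, Pitx1 in 6 and 1, and Dio2 in 0 and 6. The 1 cell that held both Tshb and Lhb had 37 UMIs of Apoc3, 158 of Cck, 103 of Chga and none of Dlk1. Apoc3 or Cck was also found in 31 Cga-alone cells, which had 0 to 56 Chga UMIs, with a median of 19, and 15 of which had a UMI of Tshb, so the threshold of 5 Tshb UMIs cut across cells with these genes.

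Depth moved with this division. The 8 cells had 1056 to 13511 UMIs with a median of 5231.5, and 4 of them exceeded 5000, while the 31 had 333 to 2875 with a median of 684. The part of depth in the division was not tested. The Chga shares above are of each cell's own UMIs, at its own depth.

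**Figure D5:**
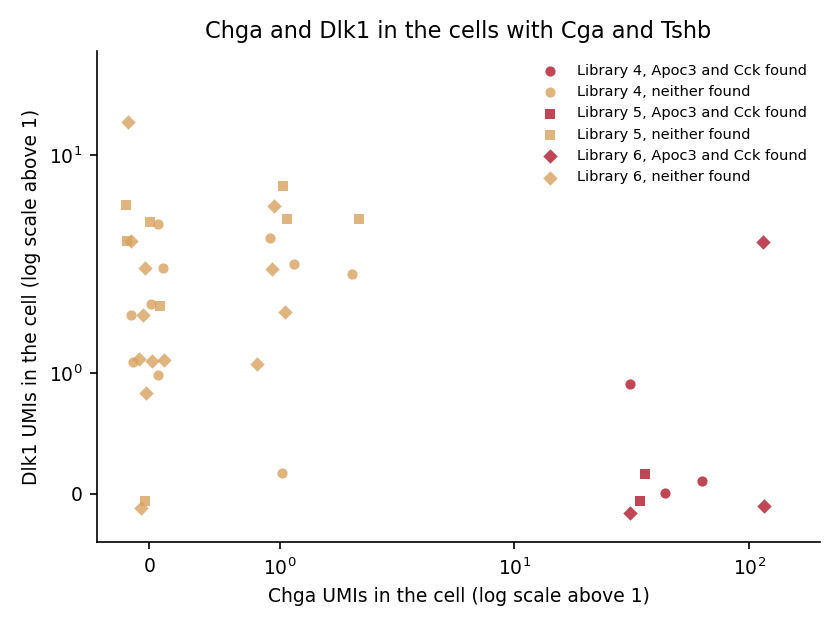
Dlk1 UMIs (vertical) against Chga UMIs (horizontal) in the 39 Tshb cells of libraries 4 to 6, with both axes linear up to 1 and logarithmic above, a small fixed shift of points, and separate marks for cells in which Apoc3 and Cck were found and those in which neither was. The 8 cells with Apoc3 and Cck have 31 to 116 Chga UMIs and the other 31 have 0 to 2.

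Cga-alone cells had a median of 12, 19 and 10 Cga UMIs, below that of gonadotropin cells, with highest cells of 706, 50 and 136. The threshold enters this difference. At the median Lhb per Cga of gonadotropin cells (0.331, 0.389 and 0.332), a cell with few Cga UMIs would also have under 5 of Lhb. The cell with 706 also had 1174 UMIs of Gh, and other single cells had 1942 of Gh, 271 of Prl or 112 of Pomc. Over all 144 Cga-alone cells Gh was at 52434 CPM against 321382 in reference cells. Prl was at 3456 against 19008 and Pomc at 2832 against 20183. No UMI of any beta subunit was found in 13, 11 and 25 of the 46, 26 and 72 cells. The others had 1 to 4 UMIs of a beta, with Tshb found in 9, 11 and 12 cells, Lhb in 22, 5 and 35 and Fshb in 9, 4 and 20. Cga-alone cells were 1.32%, 0.961% and 1.84% of all cells, and 13 of the 72 in library 6 had more than 5000 UMIs in all.

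Pituitary factors marked these cells. Of all tested genes, 10.5%, 14.7% and 10.9% were at least 2-fold higher than in reference cells, against 5, 4 and 6 of 8 lineage regulators, 5, 4 and 7 of 12 gonadotroph genes, 1, 2 and 1 of 8 thyrotroph genes and 4, 5 and 2 of 8 granule genes. At least 2-fold lower were 13.3%, 25.6% and 1.74% of all tested genes, no lineage regulator, 0, 3 and 0 gonadotroph genes, 2, 3 and 1 thyrotroph genes and 0, 0 and 1 granule genes. With the filter set on the reference cells, 3, 3 and 5 of 9 gonadotroph genes were higher. Isl1 was 9.32, 13.1 and 8.39 times the reference, Pitx1 4.01, 31.9 and 6.94 times, and Msx1, a homeobox gene of the developing pituitary, 4.61, 6.39 and 4.46 times. Gnrhr had 40.1, 25.2 and 45.0 CPM, far below its level in gonadotropin cells, and 1 UMI was worth 13.4, 25.2 and 5.005 CPM.

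Some markers of pituitary stem cells were higher in the Cga-alone cells. Of the 7 listed, 6, 4 and 7 had a UMI in these cells, and their summed level was 5054, 2268 and 4349 CPM against 1179, 1014 and 1088 CPM in reference cells. Mia and Cyp2f2 made up most of that sum, with 3343, 655 and 2472 CPM of Mia and 1056, 1285 and 1061 CPM of Cyp2f2. In reference cells Mia was at 708, 514 and 659 CPM and Cyp2f2 at 121, 41.9 and 91.2. The Mia intervals of library 5 overlapped, 428 to 960 in Cga-alone cells and 483 to 546 in reference cells. S100b was at 0 in libraries 4 and 5, Fxyd1 and Aldh1a2 were at 0 in library 5, and Fxyd1 in library 4 was at 134 CPM against 128 in the reference. The sum was also raised in Tshb cells of libraries 4 and 6 (3109 and 1966 CPM) and was 0 in those of library 5, and was 2273, 693 and 1334 CPM in gonadotropin cells. At least 2 of the markers were found in 28.3%, 30.8% and 62.5% of them, against 9.01%, 8.97% and 10.6% of reference cells and 14.6%, 5% and 14.3% of gonadotropin cells. Sox2, a factor of pituitary stem cells, was found in 10.9%, 15.4% and 31.9% against 5.94%, 4.10% and 5.47%. Cga-alone cells were deeper, at medians of 1179, 877.5 and 1711.5 UMIs against 841, 552.5 and 1032, and the part of depth in these shares was not tested. Apoc3 or Cck was found in 9, 14 and 8 of them.

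The genes most like each member were sought across all cells of libraries 4 to 6. The groups above were drawn from the same subunit counts, so these values are no separate evidence for them. By the median of Pearson's r over the 3 libraries, among 9048 genes, Lhb was most like Fshb (0.843), Tgfbr3l (0.818), Cga (0.697), Spp1 (0.608) and Gnrhr (0.576). For Fshb the order was Tgfbr3l (0.867), Lhb (0.843), Cga (0.743), Spp1 (0.650) and Gnrhr (0.611). Cga had Fshb (0.743), Tgfbr3l (0.703), Lhb (0.697), Chga (0.545) and Spp1 (0.518). Spp1, the secreted phosphoprotein osteopontin, was at 1092, 1574 and 894 CPM in gonadotropin cells and was found in 65.7%, 75% and 55.6% of them.

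Tshb had no gene close to it. Its 5 most like genes were Chgb (0.176), Cga (0.176), Apoc3 (0.168), Cck (0.151) and Chga (0.103), values that are weak in counts this sparse and are given as a description. In cells of at least 1000 UMIs 2 of these 5 genes remained among the 5 most like, Apoc3 and Cck, and the highest r was 0.362, and with cells scored as found or not found 3 remained, Chgb with the same pair. The r of Tshb with Cga was 0.176, 0.301 and 0.154 in libraries 4, 5 and 6, and with Lhb -0.01, -0.02 and -0.01. The likeness of cells rests on shared libraries and depths and carries no test.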

How the data were processed

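The authors mapped reads with Cell Ranger (2.2.0 in the submitters' processing notes) to GRCm38 and deposited filtered whole-number UMI counts per gene and cell, without normalization, for 18634 genes and 29571 cells in 9 libraries. The annotation release is not given in the sources used here. No table column was left unused (0).

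From these counts, CPM were computed from UMIs summed over cells. Their intervals are exact Poisson and those of shares exact Clopper-Pearson, at 95%, and both cover counting error only. A count of 0 is given with the level of 3 counts. Holding a subunit meant 5 UMIs. Ratios to reference cells used 10 CPM added to both levels and genes of at least 20 UMIs in libraries 4 to 6, and called a gene at 2-fold. Likeness was Pearson's r of ln(1 + count per 10000 UMIs), for genes found in at least 20 cells. Cells were not replicates and no test was run. Scrublet in scanpy 1.11.5 called 5 of 10113 cells (0.0494%) and so did not work, and all cells were kept.

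The members and gene lists were chosen with earlier results of these data known. Named genes were the members, list genes of at least 20 UMIs in libraries 4 to 6 and the 5 genes most like each member. Sox2, S100b, Fxyd1, Mia, Cyp2f2, Aldh1a2, Ruvbl2 and Lhx4, and the use of Apoc3 and Cck to divide cells, fall outside that rule and were chosen after seeing the data. Alternatives were other UMI thresholds, cells of at least 1000 UMIs, thinning to 500 UMIs, removal of the 5% highest doublet scores, totals without the leading hormones, 1 CPM added, and 2 or 4 markers. Group counts under the depth and doublet alternatives, Cga-alone cells at 3 or 10 UMIs, Tshb cells without those above 5000 UMIs and list counts with the gene filter set on reference cells were added after seeing the data. The counting and interval steps were tested on simulated data. Scripts ran in Python 3.11.15 with pandas 2.3.3, numpy 2.4.6, matplotlib 3.10.9 and scipy 1.17.1.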

Additional observations from a re-analysis of the deposited data

How the results depend on the processing

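Directions of the ratios in gonadotropin cells did not reverse in any alternative run, and the 4 subunits kept the order Cga, Lhb, Fshb and Tshb in libraries 4 to 6. Ratios of Cga-alone cells are not part of the tally that follows. Over the ratios of gonadotropin and Tshb cells, 992 of 1222 comparisons with an alternative stayed within 1.5 times their value, 210 moved further and 20 called ratios reversed. Of the 210, 129 moved with 1 CPM added in place of 10, which by construction moves ratios of genes at low levels. The cause of the other changes was not tested, except that settings which leave out cells hold fewer UMIs by construction. Without Gh, Prl and Pomc in the total, libraries 4, 5 and 6 had 17609, 8279 and 15023 CPM of Cga, 103, 128 and 219 of Tshb, 5459, 2594 and 4981 of Lhb and 798, 416 and 715 of Fshb. In cells of at least 1000 UMIs these were 17048, 8291 and 10521, 28.4, 28.2 and 126, 5323, 2648 and 3589, and 764, 468 and 493. Without the highest doublet scores Cga was 12877, 6033 and 9701, Lhb 3981, 1898 and 3285, and Tshb of library 6 126 CPM, but as Scrublet did not work this says nothing about doublets. Of the 5 genes most like each member, 2 to 5 remained under either alternative. Tshb cells numbered 7 and 5 in libraries 4 and 5 at 10 UMIs, and 4, 2 and 8 among cells of at least 1000 UMIs, where gonadotropin cells of library 5 numbered 33. All 20 reversals were in Tshb cells. At 10 UMIs the ratios were Egr1 1.15, Inhba 0.797, Inhbb 0.638, Lhx3 3.90 and Tshr 0.835 in library 4 and Inha 0.490, Gata2 0.543 and Pitx1 0.457 in library 5. At 3 UMIs they were Thrb 1.75 and Msx1 2.35 in library 5 and St3gal6 1.27 in library 4. Without cells above 5000 UMIs they were Inhba 0.795, Inhbb 0.686, Isl1 0.443, Tshr 0.833 and Prl 1.18 in library 4 and Rxrg 0.365, Gata2 0.659, Eya3 0.579 and St3gal6 0.305 in library 6. No paired analysis was possible because the labels carry no replicate numbers and no library could be matched to a sample.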

Other observations

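Gnrh1, the gene of gonadotropin-releasing hormone, had 273 UMIs in library 5 (129 CPM, 95% interval 114 to 145), in 9 cells that held no subunit and with up to 117 in a cell. Library 4 had 6 Gnrh1 UMIs and library 6 had 1, and the other 6 libraries had 0 to 4 each. Trh, the gene of thyrotropin-releasing hormone, had 26, 28 and 5 UMIs in libraries 4 to 6 and 54 in library 8, where up to 27 were in a single cell.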
